A study of Mus musculus with 6 samples.

Results

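The synaptic vesicle genes Snap25, Syt1, Syp, Stx1a, Vamp2, Slc17a6, Cplx2, Rab3a and Dnm1, were followed through bulk RNA sequencing of thyroid organoids. These 9 genes of the 25239 in the count table were chosen by symbol with their counts and fold changes in these same 6 libraries already in view. Their values are therefore given as a description, and a p-value places a gene in the fit over all genes without being independent evidence. The organoids came from an isolated clone of mouse embryonic stem cells, the line G4 RosaLuc with the inserts TRE-Nkx2-1-Pax8 and bTg-NES-BrafV637E-ERT2. Doxycycline turns on Nkx2-1 and Pax8, the factors that set thyroid fate, and the bovine Tg promoter drives a Braf V637E protein fused to a tamoxifen-responsive receptor domain. All 3 groups carried that fusion, received 1 µg/ml doxycycline for 5 days and 8-Br-cAMP for 2 weeks, were enriched for follicles and were collected on day 31. All 3 groups then stayed in 8-Br-cAMP, to which the cAMP group had only the ethanol vehicle added. The 4OHT group also received 1 µM 4-hydroxytamoxifen (4OHT), which activates the fusion, for 5 days. The PD+LY group received 4OHT together with 250 nM PD0325901, a MEK inhibitor, and 5 µM LY204002, a PI3K inhibitor, for 3 days. By the study's methods the inhibitors followed 4 days of 4OHT alone, so the length of 4OHT exposure may differ between the 4OHT and PD+LY groups. Each group had 2 libraries, each from at least 3 pooled wells. Whether these came from separate differentiations is not given in the sources used here, so p-values measure the spread between these libraries, which may be technical.

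At a nerve terminal, a vesicle is filled by a transporter in its membrane, is brought to the plasma membrane by a Rab GTPase and its effectors, and fuses when the vesicle protein VAMP2 zips together with syntaxin-1 and SNAP-25 into the SNARE complex. Synaptotagmin senses calcium, complexin holds and then releases the assembled complex, synaptophysin is an abundant protein of the vesicle membrane, and dynamin cuts the emptied membrane free from the cell surface. Several of these proteins, or close relatives of them, also serve regulated secretion and membrane traffic outside neurons, including in endocrine cells.

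The libraries held 14898409 to 20637959 counted reads. Levels below are in CPM unless stated otherwise, the count relative to the scaled total of its library over the genes tested. In this unit 1 count stood for 0.0486 to 0.0667 CPM. The non-thyroid cells that remained after enrichment were not separated, and in such bulk RNA fewer cells of a type and less RNA per cell cannot be told apart. All 10 thyroid follicular markers examined had at least 3 counts in each library, with a summed level between 574 and 2000 CPM. Among 15 neuronal cytoskeletal and RNA-binding markers 13 reached 3 counts in each library, with a summed level between 129.8 and 235.9 CPM, whereas Rbfox3, the marker of mature neurons, stayed between 0.0973 and 0.731 CPM.

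The 9 genes were present at very unequal levels. Corrected for the exonic length of each gene, the mean over the 6 libraries was highest for Vamp2 at 10.8 CPM per kb, followed by Rab3a at 6.42, Dnm1 at 5.91 and Stx1a at 2.31 CPM per kb. Lower levels per length were found for Cplx2 at 0.905, Syp at 0.495, Syt1 at 0.109, Snap25 at 0.0592 and Slc17a6 at 0.0132 CPM per kb. The vesicle SNARE, the Rab and the dynamin therefore stood well above the calcium sensor, the plasma membrane SNARE partner Snap25 and the glutamate transporter. The neighbours Rab3a and Dnm1 did not differ beyond their spread in cAMP (4.90 ± 0.862 against 5.30 ± 0.0188 CPM per kb, mean ± SD, n = 2) or in 4OHT (6.64 ± 0.0211 against 7.36 ± 1.01 CPM per kb), and were further apart in PD+LY (7.71 ± 0.380 against 5.07 ± 0.967 CPM per kb).

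**Figure D1:**
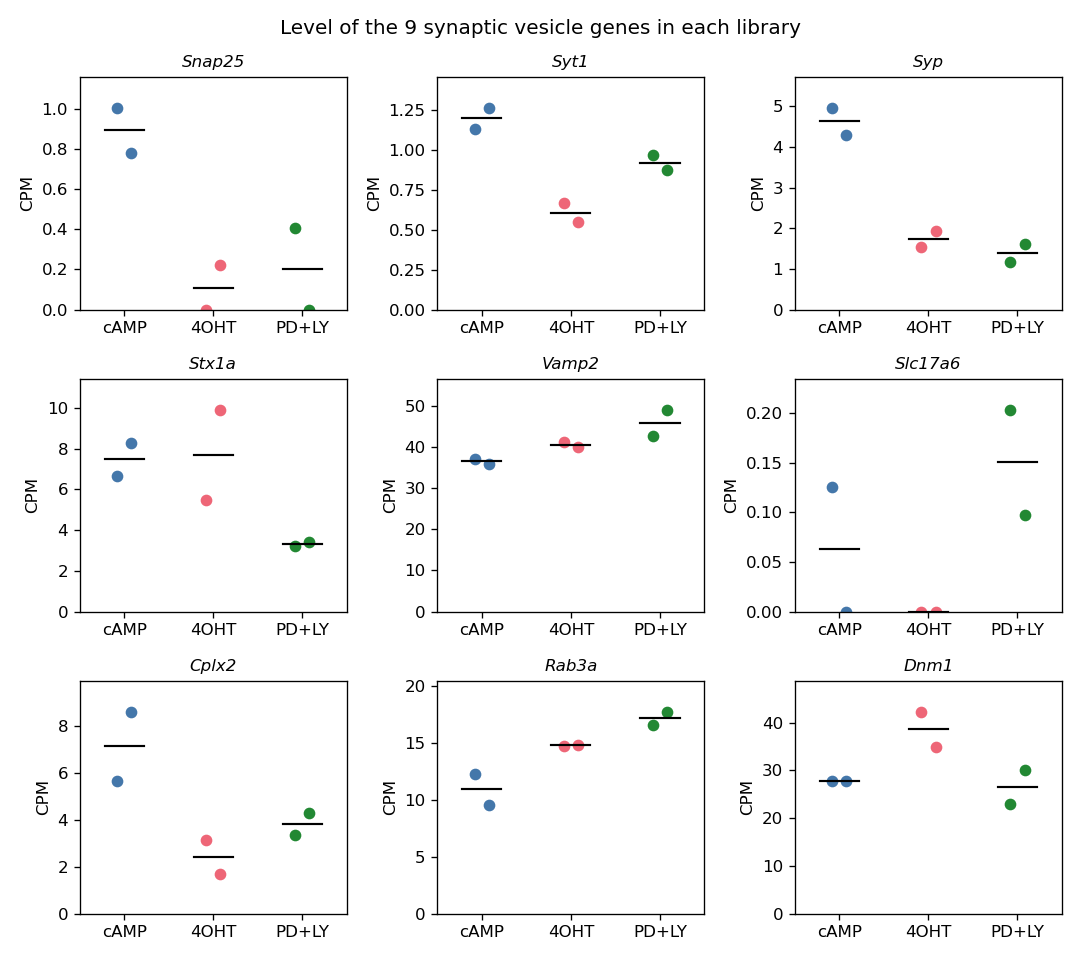
Level of the 9 genes in the 3 groups in CPM, with a point for each library, a bar at the mean of the 2 libraries and a separate linear axis from 0 for each gene. Syp lies between 4.29 and 4.97 CPM in cAMP and between 1.17 and 1.92 CPM in the other 4 libraries, while Vamp2 lies between 35.8 and 49.1 CPM in all 6.

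Slc17a6 had too few counts for the test, edgeR's quasi-likelihood test over 15256 genes with Benjamini-Hochberg adjustment, and the other 8 genes were tested. A gene is said to have passed, and to have risen or fallen, at an adjusted p below 0.05. In the organoids with the activated fusion Syp and Cplx2 were lower: these 2 of the 8 tested genes passed in 4OHT against cAMP, both downwards, where 8.70% of all tested genes passed, 4.26% upwards and 4.44% downwards. Under the inhibitors, in PD+LY against 4OHT, Stx1a and Dnm1 fell, which makes 2 of 8 where 23.3% of all tested genes passed, 11.0% upwards and 12.4% downwards. In PD+LY against cAMP 4 of 8 passed, Syp, Stx1a and Cplx2 downwards and Rab3a upwards, where 26.0% of all tested genes passed, 12.2% upwards and 13.7% downwards. The cAMP libraries serve in both comparisons with cAMP and the 4OHT libraries in both comparisons with 4OHT, so the 3 comparisons are not independent. The median log2 fold change of the 8 tested genes was -0.47, 0.20 and -0.65 in the 3 comparisons, in the order given, beside -0.0021, 0.0077 and 0.0049 over all tested genes. With 1 library left out, neither of the 2 calls in 4OHT against cAMP and neither of the 2 in PD+LY against 4OHT held in every fit, and 1 of the 4 in PD+LY against cAMP, that of Syp, did.

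**Figure D2:**
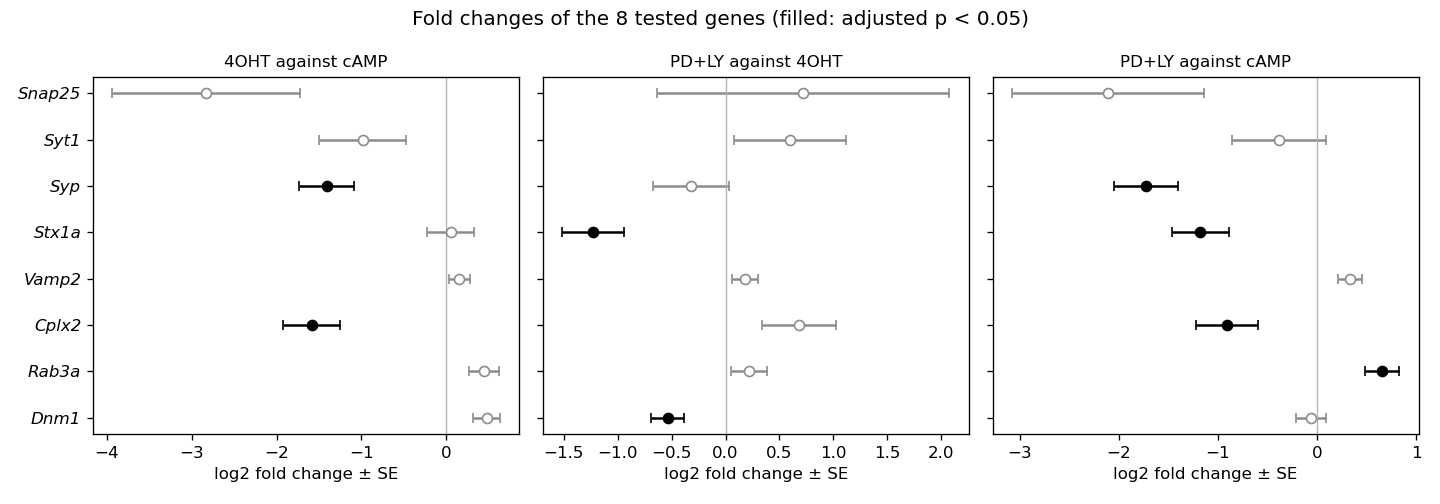
Log2 fold change of the 8 tested genes in the 3 comparisons, with bars of 1 standard error (SE) from edgeR and filled points for an adjusted p below 0.05. Syp and Cplx2 lie left of 0 against cAMP in 4OHT and in PD+LY, Stx1a lies left of 0 only where PD+LY is compared, and Rab3a and Vamp2 lie right of 0 in each panel.

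Syp, the gene of the vesicle membrane protein synaptophysin (chromosome X, 7638471 to 7653256, plus strand, GRCm38), was counted 79 and 88 times in the cAMP libraries, 23 and 35 times in the 4OHT libraries and 23 and 33 times in the PD+LY libraries. These counts correspond to 4.97 and 4.29 CPM in cAMP, 1.53 and 1.92 CPM in 4OHT, and 1.17 and 1.61 CPM in PD+LY. Both cAMP libraries were above all 4 others, whereas 4OHT and PD+LY overlapped. The fall was 2.65-fold in 4OHT (log2 fold change -1.41 ± 0.32, SE, adjusted p = 0.0180) and 3.31-fold in PD+LY (-1.73 ± 0.32, adjusted p = 0.00190) relative to cAMP. The difference between PD+LY and 4OHT did not pass (-0.32 ± 0.35, adjusted p = 0.549). With 1 library left out the fall in 4OHT did not pass when either cAMP library or either 4OHT library was missing, with log2 fold changes from -1.58 to -1.26 and adjusted p from 0.0597 to 0.164. Over all alternatives its adjusted p ranged from 0.000869 to 0.164. The fall in PD+LY relative to cAMP passed in all 13 alternative fits. Exons of Syp overlap Gm14703 on the opposite strand, and since reads were counted without strand the reads of both genes cannot be told apart there.

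Cplx2 encodes complexin 2, a small protein that binds the assembled SNARE complex (chromosome 13, 54371349 to 54383917, plus strand). Its level was 5.66 and 8.63 CPM in cAMP, 3.14 and 1.70 CPM in 4OHT and 3.36 and 4.28 CPM in PD+LY, from 31 to 177 counts per library. No group overlapped another, with cAMP highest and 4OHT lowest. In 4OHT it fell 3.01-fold relative to cAMP (log2 fold change -1.59 ± 0.33, adjusted p = 0.0115). This call was lost without cAMP library 2 (-1.24, adjusted p = 0.0935) and without 4OHT library 2 (-1.19, adjusted p = 0.135), and the adjusted p ranged from 7.89e-07 to 0.135 over the alternatives. In PD+LY it was 1.60-fold higher than in 4OHT without passing (0.68 ± 0.34, adjusted p = 0.169), and 1.88-fold lower than in cAMP (-0.91 ± 0.31, adjusted p = 0.0462). The latter call was lost without cAMP library 2 (-0.56, adjusted p = 0.358), without PD+LY library 1 (-0.75, adjusted p = 0.136) and with DESeq2 in place of edgeR (-0.91, adjusted p = 0.0679), over a range of 0.00354 to 0.358.

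Stx1a, which encodes the plasma membrane SNARE syntaxin-1A (chromosome 5, 135023482 to 135051100, plus strand), showed another order of the groups. It stood at 6.67 and 8.29 CPM in cAMP, 5.47 and 9.93 CPM in 4OHT, and 3.21 and 3.40 CPM in PD+LY. The 4OHT libraries lay on either side of the cAMP libraries, and both PD+LY libraries were below the other 4. In PD+LY Stx1a fell 2.34-fold relative to 4OHT (log2 fold change -1.23 ± 0.29, adjusted p = 0.00892) and 2.26-fold relative to cAMP (-1.18 ± 0.29, adjusted p = 0.00930). The difference between 4OHT and cAMP was 0.05 ± 0.27 (adjusted p = 0.937). The fall relative to 4OHT was lost without 4OHT library 2, the library with the highest level (-0.72, adjusted p = 0.188, over a range of 1.48e-05 to 0.188). The fall relative to cAMP was lost without cAMP library 2 (-1.001, adjusted p = 0.0715, over a range of 2.73e-05 to 0.0715).

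Rab3a, the Rab GTPase that carries vesicles to the release site (chromosome 8, 70754679 to 70758677, plus strand), was at 12.3 and 9.55 CPM in cAMP, 14.7 and 14.8 CPM in 4OHT and 16.6 and 17.8 CPM in PD+LY. The 3 groups did not overlap, with cAMP lowest and PD+LY highest. Of the steps, PD+LY against cAMP passed, 1.58-fold up (log2 fold change 0.66 ± 0.17, adjusted p = 0.0130), while 4OHT against cAMP (0.44 ± 0.17, adjusted p = 0.138) and PD+LY against 4OHT (0.22 ± 0.17, adjusted p = 0.383) did not. Without cAMP library 2, the library with the lowest level, the change from cAMP to PD+LY was 0.49 with an adjusted p of 0.141, over a range of 0.00200 to 0.141. Exons of Rab3a overlap Mpv17l2 on the opposite strand, which the unstranded counts cannot separate.

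Dnm1 encodes dynamin 1, the neuronal form of the membrane-cutting GTPase (chromosome 2, 32308471 to 32353338, minus strand). It was measured at 27.7 and 27.9 CPM in cAMP, 42.4 and 34.9 CPM in 4OHT, and 23.0 and 30.2 CPM in PD+LY, from 441 to 636 counts per library. Both 4OHT libraries were above the other 4, and the PD+LY libraries lay on either side of cAMP. In 4OHT the level was 1.39-fold that in cAMP without passing (log2 fold change 0.47 ± 0.15, adjusted p = 0.0774), and in PD+LY it fell 1.45-fold relative to 4OHT (-0.53 ± 0.15, adjusted p = 0.0243). The difference between PD+LY and cAMP was -0.06 ± 0.15 (adjusted p = 0.801). The fall relative to 4OHT was lost without 4OHT library 1 (-0.39, adjusted p = 0.229), without 4OHT library 2 (-0.67, adjusted p = 0.0506) and without PD+LY library 1 (-0.35, adjusted p = 0.107), over a range of 0.00321 to 0.229. The difference between 4OHT and cAMP passed in 5 of 13 alternatives, among them the fit of these 2 groups alone (0.48, adjusted p = 0.0191) and the fits without PD+LY library 1 or 2 (0.47 in each, adjusted p = 0.0168 and 0.0180), over a range of 0.0168 to 0.471.

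Vamp2, the vesicle SNARE and the most abundant of the 9 genes (chromosome 11, 69088490 to 69092384, plus strand), was at 37.2 and 35.8 CPM in cAMP, 41.1 and 40.0 CPM in 4OHT, and 42.8 and 49.1 CPM in PD+LY. The groups did not overlap, with cAMP lowest and PD+LY highest, but the steps were small. None of the 3 comparisons passed, with log2 fold changes of 0.15 ± 0.12 (adjusted p = 0.487) in 4OHT against cAMP, 0.18 ± 0.12 (adjusted p = 0.296) in PD+LY against 4OHT and 0.33 ± 0.12 (adjusted p = 0.0576) in PD+LY against cAMP. The last did pass without PD+LY library 1 (0.43, adjusted p = 0.0168), over a range of 0.0168 to 0.227.

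Syt1, the gene of the calcium sensor synaptotagmin 1 (chromosome 10, 108497650 to 109010982, minus strand), gave 18 and 26 counts in cAMP, 10 and 10 in 4OHT and 19 and 18 in PD+LY. In CPM these are 1.13 and 1.27, 0.667 and 0.549, and 0.968 and 0.875. The groups did not overlap, with cAMP highest and 4OHT lowest as for Cplx2, and none of the comparisons passed. The log2 fold change of Syt1 relative to cAMP was -0.99 ± 0.51 in 4OHT (adjusted p = 0.264) and -0.38 ± 0.47 in PD+LY (adjusted p = 0.591), and that from 4OHT to PD+LY was 0.60 ± 0.52 (adjusted p = 0.431).

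Snap25, the partner of syntaxin-1 at the plasma membrane (chromosome 2, 136713453 to 136782428, plus strand), gave 16 and 16 counts in cAMP, 0 and 4 in 4OHT, and 8 and 0 in PD+LY. Both cAMP libraries were above the other 4, and a library without a count allows up to 0.200 CPM in 4OHT and 0.146 CPM in PD+LY, the level of 3 counts. No comparison passed, with fitted log2 fold changes of -2.83 ± 1.10 in 4OHT (adjusted p = 0.138) and -2.11 ± 0.97 in PD+LY (adjusted p = 0.130) relative to cAMP. The fitted value was 0.72 ± 1.36 (adjusted p = 0.740) between the last 2 groups. These fitted values depend on the libraries at 0: without PD+LY library 1 the PD+LY group held no count and its difference from cAMP passed (-7.01, adjusted p = 0.0214). Without PD+LY library 2 it was -1.11 (adjusted p = 0.423), the ends of the range over the alternatives. The difference between 4OHT and cAMP passed in the fit of these 2 groups alone (-2.82, adjusted p = 0.0447) and in none of the other 10 alternatives with an adjusted p, up to 0.502.

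Slc17a6, which encodes the vesicular glutamate transporter VGLUT2 (chromosome 7, 51622006 to 51671119, plus strand), gave 2 and 0 counts in cAMP, 0 and 0 in 4OHT and 4 and 2 in PD+LY. Only PD+LY library 1 exceeded 3 counts, and no fold change is given. At this depth a difference between the groups was not detectable for this gene.

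The sequence upstream of the start site is shown for the 4 genes that passed against cAMP in at least 1 comparison, as the stretch that precedes the earliest annotated start. The sequences are from RefSeq (GRCm38.p6), all on the plus strand and written 5′ to 3′, and capitals mark the GC box GGGCGG or CCGCCC, bound by Sp1 family factors, and the core TGACG or CGTCA of the cAMP response element. The first 2 genes fell in 4OHT, the third fell where the inhibitors were added and the fourth rose in PD+LY.
Syp, chrX:7638330-7638470: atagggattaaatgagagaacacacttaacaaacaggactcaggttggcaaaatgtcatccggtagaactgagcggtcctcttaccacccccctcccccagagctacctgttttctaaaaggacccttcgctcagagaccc
Cplx2, chr13:54302306-54302555: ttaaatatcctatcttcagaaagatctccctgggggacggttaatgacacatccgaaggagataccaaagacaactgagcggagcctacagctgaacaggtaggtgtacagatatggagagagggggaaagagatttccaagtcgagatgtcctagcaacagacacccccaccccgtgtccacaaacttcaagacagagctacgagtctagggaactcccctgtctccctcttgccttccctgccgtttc
Stx1a, chr5:135023232-135023481: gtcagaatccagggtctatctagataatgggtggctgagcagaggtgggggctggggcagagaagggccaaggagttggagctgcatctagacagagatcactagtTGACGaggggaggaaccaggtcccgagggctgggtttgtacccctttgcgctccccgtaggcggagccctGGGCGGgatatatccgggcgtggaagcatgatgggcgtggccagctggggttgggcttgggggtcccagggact
Rab3a, chr8:70754453-70754678: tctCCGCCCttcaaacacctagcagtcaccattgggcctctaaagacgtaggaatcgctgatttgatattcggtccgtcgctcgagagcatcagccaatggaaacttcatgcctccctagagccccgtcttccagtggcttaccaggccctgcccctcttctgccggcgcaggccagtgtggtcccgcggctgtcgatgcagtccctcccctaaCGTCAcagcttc
The stretches of Syp and Cplx2 have a GC content of 49.6% and 50.8% and hold neither motif, and those of Stx1a and Rab3a have 62.0% and 58.8% and hold 1 of each. The stretch of Syp is the shortest, with 141 bases beside 226 to 250 for the others. In the full RefSeq windows of 300 bases Syp held 2 GC boxes, Cplx2 0, Stx1a 3 and Rab3a 2. The RefSeq start of Cplx2 lies 68793 bases upstream of the gene start in GENCODE M21, so its stretch precedes the longer transcript. In the full RefSeq windows of 300 bases, available for 7 of the 9 genes (Snap25 and Vamp2 have no entry), the GC box was found in 6 of 7 and the TGACG core in Stx1a and Rab3a. Over the 27025 windows of all genes these motifs occurred in 35.9% and 21.02%, and the full element TGACGTCA, which contains the core in both orientations and was found in none of the 7, in 1.88%. A match of letters is a description of the sequence and says nothing of binding in these cells.

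Relatives that serve traffic in most cells had a higher level per length than the neuronal forms, with means over the 6 libraries of 13.4 CPM per kb for Snap23, 33.0 for Vamp3 and 25.3 for Dnm2, beside 0.0592, 10.8 and 5.91 CPM per kb for Snap25, Vamp2 and Dnm1. Of the SNAP-25 family, Snap23 was at 46.9 to 70.6 CPM, Snap47 at 53.2 to 60.1 and Snap29 at 20.3 to 24.6 CPM over the 6 libraries, and none of them passed in any comparison, with adjusted p between 0.185 and 0.941. Dnm2, the dynamin of most tissues, lay at 122.6 to 149.8 CPM and did not pass in any comparison either (adjusted p from 0.209 to 0.888). Among the vesicle SNAREs Vamp3 was at 84.4 to 105.8 CPM without passing, and Vamp8 fell in PD+LY relative to cAMP (log2 fold change -0.67 ± 0.15, adjusted p = 0.00568), a call lost without cAMP library 2 (-0.60, adjusted p = 0.0541).

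Stx3, the syntaxin of apical membranes in epithelia, stood at 132.6 and 134.4 CPM in cAMP, 65.3 and 70.1 CPM in 4OHT, and 75.2 and 62.9 CPM in PD+LY. Both cAMP libraries were far above the other 4, and 4OHT and PD+LY overlapped, as they did for Syp. Stx3 fell in 4OHT (log2 fold change -0.98 ± 0.11, adjusted p = 0.000189) and in PD+LY (-0.95 ± 0.11, adjusted p = 4.71e-05) relative to cAMP and passed with any 1 library left out. From 4OHT to PD+LY the value was 0.03 ± 0.11 (adjusted p = 0.882). Stx2 rose in PD+LY relative to cAMP, opposite to Stx1a and Stx3 (0.46 ± 0.14, adjusted p = 0.0291). It passed in 1 of 6 fits with 1 library left out. In the unstranded counts exons of Dnm2 overlap Tmed1, those of Rab3b 8030443G20Rik and those of Ina Nt5c2, each on the opposite strand.

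Relatives of the other members moved apart from them in part. Syt13, a synaptotagmin that lacks calcium binding, was at 10.1 and 11.9 CPM in cAMP, 4.14 and 3.40 CPM in 4OHT, and 7.28 and 7.34 CPM in PD+LY. Its groups followed the order cAMP, PD+LY, 4OHT, as those of Syt1 did. Syt13 fell in 4OHT relative to cAMP (log2 fold change -1.55 ± 0.22, adjusted p = 0.00108) with any 1 library left out, and rose in PD+LY relative to 4OHT (0.96 ± 0.22, adjusted p = 0.00801) except without 4OHT library 2 (0.82, adjusted p = 0.107). Rab3b, like Rab3a a Rab of secretory vesicles, rose in PD+LY relative to cAMP, from 10.8 and 10.7 CPM to 19.0 and 22.6 CPM (0.95 ± 0.16, adjusted p = 0.000957), with any 1 library left out. Rab3d instead rose in 4OHT relative to cAMP (0.66 ± 0.15, adjusted p = 0.0169). It fell from 4OHT to PD+LY, with log2 fold changes from -0.55 to -0.47 with 1 library left out. Each of these Rab3d calls passed in 3 of 6 such fits. Slc17a7, the gene of the glutamate transporter VGLUT1, had a higher mean level per length than Slc17a6, 1.56 CPM per kb, and was at 8.99 and 9.36 CPM in cAMP, 12.5 and 11.7 CPM in 4OHT, and 2.60 and 5.25 CPM in PD+LY. Its PD+LY libraries were below the other 4, and it fell in PD+LY relative to 4OHT (-1.62 ± 0.27, adjusted p = 0.00113) and to cAMP (-1.22 ± 0.27, adjusted p = 0.00573) with any 1 library left out. Cplx1, the other main complexin, had 18.2 counts per library on average and fell in PD+LY relative to 4OHT (-2.23 ± 0.56, adjusted p = 0.0129), a call lost without 4OHT library 1, 4OHT library 2 or PD+LY library 2 (adjusted p = 0.0648, 0.0861 and 0.0579). Among the synaptophysin relatives Sypl passed in no comparison, at 60.0 to 90.6 CPM, and Syngr3 fell in PD+LY relative to cAMP (-1.07 ± 0.24, adjusted p = 0.00637). Syngr1 rose in that comparison, opposite to Syp and Syngr3 (0.38 ± 0.10, adjusted p = 0.0121). The call of Syngr1 was lost without cAMP library 1 (0.38) or cAMP library 2 (0.39).

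The vesicle cycle was then read as 9 role lists with 138 further genes, of which 122 were tested. In 4OHT against cAMP 4 of the 122 rose, 10 fell and 108 did not pass, and the median log2 fold change of the 122 was -0.01. The 11.5% that passed stand beside 8.70% of all tested genes. From 4OHT to PD+LY 10 rose, 18 fell and 94 did not pass, with a median of -0.06, and from cAMP to PD+LY 13 rose, 30 fell and 79 did not pass, with a median of -0.08. The shares that passed were 23.0% and 35.2%, beside 23.3% and 26.0% of all tested genes. Of these calls 3 of 14, 8 of 28 and 19 of 43 held whichever library was left out. Among 15 tested SNARE proteins, the 3 of the main set included, Stx3 was the 1 that passed in 4OHT and Stx1a the 1 that passed between PD+LY and 4OHT, and 1 rose and 3 fell from cAMP to PD+LY. Of these 15, 6.67%, 6.67% and 26.7% passed in the 3 comparisons, beside 8.70%, 23.3% and 26.0% of all tested genes.

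**Figure D3:**
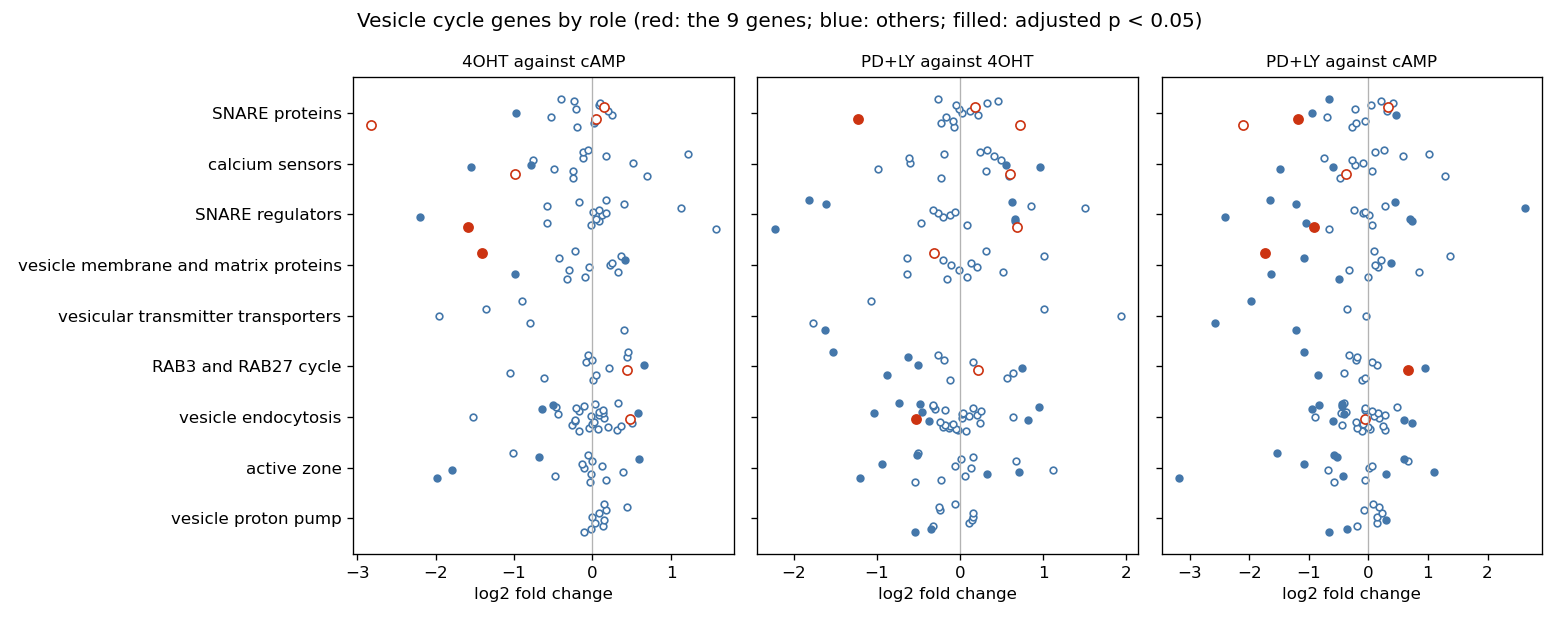
Log2 fold change (x axis) of the tested vesicle cycle genes in 9 role lists (rows) for the 3 comparisons, the 9 genes of the main set in red and the others in blue, filled where the adjusted p is below 0.05. Outside the transmitter transporters the list medians lie between -0.42 and 0.32, and filled points occur on both sides of 0. The median of the transmitter transporters is -0.90, -1.07 and -1.22 in the 3 comparisons. Their filled points all lie left of 0 where PD+LY is compared.

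By role, the genes that guide the SNAREs changed in both directions. Unc13a, which primes vesicles for release, was at 14.4 and 11.4 CPM in cAMP, 16.6 and 17.2 CPM in 4OHT, and 3.82 and 7.20 CPM in PD+LY, and fell in PD+LY relative to 4OHT (log2 fold change -1.61 ± 0.25, adjusted p = 0.000773) and to cAMP (-1.22 ± 0.25, adjusted p = 0.00395). Nsf, the ATPase that takes used SNARE complexes apart, rose in PD+LY relative to 4OHT (0.66 ± 0.11, adjusted p = 0.000942) and to cAMP (0.74 ± 0.11, adjusted p = 0.000297). These calls of Unc13a and Nsf passed with any 1 library left out, and Unc13a exons overlap Colgalt1 on the opposite strand. In the same 2 comparisons Unc13d fell (-1.82 ± 0.37 and -1.65 ± 0.37, adjusted p = 0.00403 and 0.00595). Snapin rose in both (0.66 ± 0.14 and 0.71 ± 0.14, adjusted p = 0.00535 and 0.00277). Relative to 4OHT both calls were lost without 4OHT library 2 (-1.58 and 0.50). That of Unc13d relative to cAMP was lost without cAMP library 2 (-1.18). Of 16 tested SNARE regulators, Cplx2 included, 2 fell and none rose from cAMP to 4OHT, 3 rose and 3 fell from 4OHT to PD+LY, and 4 rose and 5 fell from cAMP to PD+LY. Of 14 tested calcium sensors, Syt1 included, 2 fell in 4OHT, 2 rose from 4OHT to PD+LY and 2 fell from cAMP to PD+LY. In the 3 comparisons 12.5%, 37.5% and 56.2% of the regulators passed, and 14.3% of the sensors in each. Of all tested genes 8.70%, 23.3% and 26.0% passed.

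Of 13 tested membrane and matrix proteins of the vesicle, Syp included, 1 rose and 2 fell from cAMP to 4OHT, and 1 rose and 4 fell from cAMP to PD+LY. Sv2a, a glycoprotein of the vesicle membrane, was at 12.1 and 17.4 CPM in cAMP, 7.27 and 7.63 CPM in 4OHT, and 4.69 and 4.86 CPM in PD+LY. The groups did not overlap, with cAMP highest and PD+LY lowest. Sv2a fell in PD+LY relative to cAMP (log2 fold change -1.63 ± 0.22, adjusted p = 0.000164) with any 1 library left out, and in 4OHT (-0.99 ± 0.21, adjusted p = 0.0134), where the call was lost without cAMP library 2 (-0.69, adjusted p = 0.156), 4OHT library 1 (-0.95, adjusted p = 0.129) or 4OHT library 2 (-1.02, adjusted p = 0.102). None of the 10 tested subunits of the proton pump that acidifies vesicles passed between cAMP and 4OHT. From cAMP to PD+LY 2 of the 10 fell, among them Atp6v0a1 (-0.65 ± 0.11, adjusted p = 0.000749), and 1 rose. Of the 5 tested transmitter transporters none passed from cAMP to 4OHT, 1 fell from 4OHT to PD+LY and 3 fell from cAMP to PD+LY. From cAMP to 4OHT 23.1% of the membrane and matrix proteins passed, beside 8.70% of all tested genes. From 4OHT to PD+LY 20.0% of the transporters passed, beside 23.3%. From cAMP to PD+LY 38.5% of the membrane and matrix proteins, 30.0% of the pump subunits and 60.0% of the transporters passed, beside 26.0%.

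Of the 15 tested active zone genes 1 rose and 3 fell from cAMP to 4OHT, and 3 rose and 6 fell from cAMP to PD+LY. These shares of 26.7% and 60.0% stand beside 8.70% and 26.0% of all tested genes. Cacna1b, the pore subunit of the N-type calcium channel, was at 8.62 and 9.94 CPM in cAMP, 2.54 and 2.19 CPM in 4OHT, and 1.12 and 0.924 CPM in PD+LY. Its groups were well apart, and it fell in 4OHT (log2 fold change -1.98 ± 0.26, adjusted p = 0.000704) and in PD+LY (-3.18 ± 0.28, adjusted p = 7.62e-06) relative to cAMP with any 1 library left out. Ppfia4, a scaffold of the active zone, fell in PD+LY relative to 4OHT (-0.94 ± 0.14, adjusted p = 0.000531) and to cAMP (-1.08 ± 0.14, adjusted p = 0.000135), and Erc2, another scaffold, rose relative to cAMP (1.10 ± 0.20, adjusted p = 0.00161). Of 12 tested genes of the RAB3 and RAB27 cycle, Rab3a included, 1 rose from cAMP to 4OHT, 1 rose and 4 fell from 4OHT to PD+LY, and 2 rose and 2 fell from cAMP to PD+LY. These shares of 8.33%, 41.7% and 33.3% stand beside 8.70%, 23.3% and 26.0% of all tested genes. Rab27a, which docks secretory granules, fell in PD+LY relative to 4OHT (-0.88 ± 0.14, adjusted p = 0.000639) and to cAMP (-0.84 ± 0.13, adjusted p = 0.000614). Rph3al of the same list fell further, relative to 4OHT (-1.54 ± 0.30, adjusted p = 0.00307) and to cAMP (-1.09 ± 0.30, adjusted p = 0.0193). Pacsin1, a neuronal dynamin partner, was highest in 4OHT, as Dnm1 was. It was at 27.7 and 27.6 CPM in cAMP, 45.2 and 37.4 CPM in 4OHT, and 17.1 and 23.2 CPM in PD+LY. Unlike those of Dnm1, both PD+LY libraries of Pacsin1 were below both cAMP libraries. Pacsin1 fell in PD+LY relative to 4OHT (-1.03 ± 0.16, adjusted p = 0.000664) with any 1 library left out. Of the 30 tested endocytosis genes, Dnm1 included, 2 rose and 6 fell from 4OHT to PD+LY. That is 26.7%, beside 23.3% of all tested genes.

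Marker lists of the cells that could carry vesicle genes moved with the groups as well. The 15 neuronal cytoskeletal and RNA-binding markers summed to 235.9 and 207.6 CPM in cAMP, 172.5 and 166.7 CPM in 4OHT, and 129.8 and 130.2 CPM in PD+LY. The 3 groups did not overlap, with cAMP highest and PD+LY lowest. Of these 15 markers, all tested, 3 fell and none rose from cAMP to 4OHT, 5 fell and 2 rose from 4OHT to PD+LY, and 7 fell and 1 rose from cAMP to PD+LY, with median log2 fold changes of -0.58, -0.63 and -1.13. The shares that passed were 20.0%, 46.7% and 53.3%, beside 8.70%, 23.3% and 26.0% of all tested genes. Ina, a neuronal intermediate filament gene, fell from 27.0 and 24.2 CPM in cAMP to 3.80 and 4.72 CPM in 4OHT (log2 fold change -2.58 ± 0.19, adjusted p = 1.96e-05) and rose to 10.95 and 12.5 CPM in PD+LY (1.45 ± 0.19 relative to 4OHT, adjusted p = 0.000239). From 4OHT to PD+LY Elavl2 also rose (1.07 ± 0.15, adjusted p = 0.000443). Elavl3 (-1.96 ± 0.20, adjusted p = 4.12e-05) and Nefl (-1.87 ± 0.25, adjusted p = 0.000234) fell in that comparison. Stmn2, a growth cone protein gene named here because it gave 34.3% of the summed level, did not pass in 4OHT against cAMP (-0.03 ± 0.12, adjusted p = 0.911) and fell in PD+LY relative to 4OHT (-1.43 ± 0.13, adjusted p = 1.22e-05). The part of the neuronal markers in the levels of the 9 genes was not tested.

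The 15 neuroendocrine markers, of which Cpe gave 43.4% of the sum, had summed levels of 90.1 and 95.6 CPM in cAMP, 134.0 and 137.0 CPM in 4OHT, and 105.2 and 86.1 CPM in PD+LY. Both 4OHT libraries were above the other 4, while most single markers were not higher: from cAMP to 4OHT 3 of the 12 tested rose and none fell, 7 of the 12 had a negative log2 fold change and the median was -0.27. The 25.0% that passed stand beside 8.70% of all tested genes. Scg2 (log2 fold change 1.25 ± 0.23, adjusted p = 0.00530) and Ptprn (1.25 ± 0.16, adjusted p = 0.000641), both genes of dense-core granules, rose in 4OHT relative to cAMP, and Calca, the calcitonin gene, fell in PD+LY relative to 4OHT (-2.60 ± 0.40, adjusted p = 0.000681). Neural progenitor markers summed to 574.5 and 602.3 CPM in cAMP, 465.2 and 481.6 CPM in 4OHT and 577.1 and 601.9 CPM in PD+LY, with 4OHT lowest, and Sox2 gave 54.7% of that sum. Of the 10 tested progenitor markers 3 fell and none rose from cAMP to 4OHT, 4 rose and 1 fell from 4OHT to PD+LY, and 2 rose and 5 fell from cAMP to PD+LY, with a median log2 fold change of -0.95 in the last. Sox1, for example, fell from cAMP to PD+LY (-1.67 ± 0.31, adjusted p = 0.00197). Glial markers lay between 68.7 and 78.1 CPM in the cAMP and 4OHT libraries and at 114.8 and 123.1 CPM in PD+LY, and Mbp, which gave 54.7% of that sum, rose in PD+LY relative to 4OHT (1.60 ± 0.12, adjusted p = 3.11e-06). Of the 9 glial markers 2 rose and 2 fell from 4OHT to PD+LY, with a median of -0.06, and those that fell were Olig1 (-1.30 ± 0.30, adjusted p = 0.00806) and Aldh1l1 (-0.76 ± 0.14, adjusted p = 0.00197). The 44.4% of glial markers that passed stand beside 23.3% of all tested genes. Of the markers of transmitter synthesis Chat and Dbh had no count in any library, and Gad1 fell in PD+LY relative to cAMP (-2.91 ± 0.34, adjusted p = 6.58e-05). The mesenchymal markers summed to 1205 and 1311 CPM in cAMP, 2253 and 2374 CPM in 4OHT and 4843 and 4113 CPM in PD+LY, with 32.4% of the sum from Col1a1. From cAMP to PD+LY 5 of the 9 mesenchymal markers rose and 2 fell, namely Pdgfrb (-1.06 ± 0.16, adjusted p = 0.000424) and Thy1 (-0.73 ± 0.16, adjusted p = 0.00600). The 77.8% of mesenchymal markers that passed stand beside 26.0% of all tested genes. Thyroid follicular markers, of which Tg gave 92.5% of the sum, were at 1658 and 1111 CPM in cAMP, 574 and 767.1 CPM in 4OHT, and 2000 and 999 CPM in PD+LY, and 2 of 10 fell from cAMP to 4OHT and 5 rose from 4OHT to PD+LY. The summed level was 175.3 to 196.3 CPM for postsynaptic markers and 3352 to 4123 CPM for pluripotency markers. From cAMP to PD+LY 1 of 15 tested postsynaptic markers rose and 2 fell. Of the 8 pluripotency markers 4 rose and 2 fell, with a median of 0.17. The shares that passed were 20.0% and 75.0%, beside 26.0% of all tested genes. Endothelial markers summed to 165.8 to 190.5 CPM, 85.2% of it from Pecam1, and of the 6 tested 1 rose and 3 fell from cAMP to 4OHT, among them Kdr (-2.31 ± 0.29, adjusted p = 0.000469), with a median of -1.07. The 66.7% of endothelial markers that passed stand beside 8.70% of all tested genes. Cardiomyocyte markers summed to 5.45 to 13.4 CPM, and 3 of the 5 tested fell from cAMP to PD+LY, with a median of -1.10. That share of 60.0% stands beside 26.0% of all tested genes. The part of these lists in the levels of the 9 genes was not tested.

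**Figure D4:**
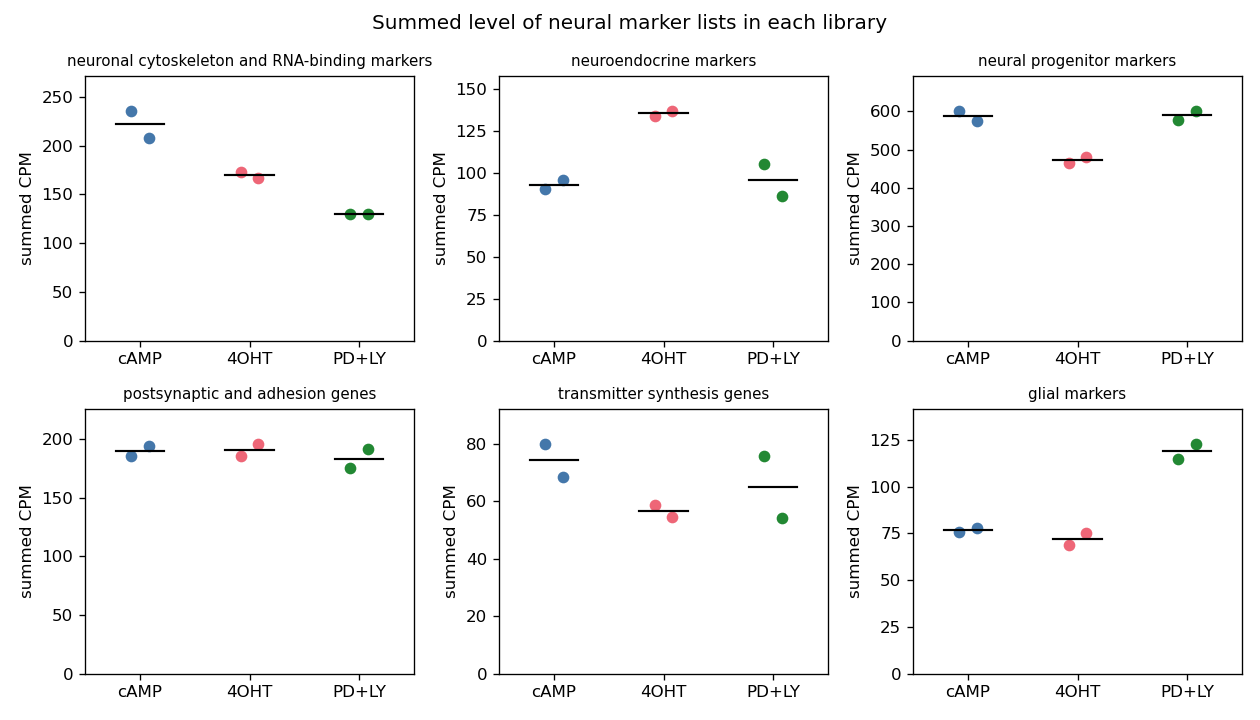
Summed level in CPM (y axis, linear from 0) of 6 neural marker lists, with a point for each library and a bar at the mean of the 2 libraries of each group. The neuronal cytoskeletal and RNA-binding markers descend from cAMP to PD+LY, the neuroendocrine markers are highest in 4OHT and the glial markers are highest in PD+LY.

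Rest, the repressor that keeps many of these genes silent outside neurons, did not pass in any comparison. It was at 151.3 and 140.9 CPM in cAMP, 127.3 and 131.8 CPM in 4OHT, and 144.0 and 145.4 CPM in PD+LY, with log2 fold changes of -0.17 ± 0.09 (adjusted p = 0.268), 0.16 ± 0.09 (adjusted p = 0.222) and -0.01 ± 0.09 (adjusted p = 0.929) from cAMP to 4OHT, from 4OHT to PD+LY and from cAMP to PD+LY. Both 4OHT libraries were the lowest of the 6. Of Rest and its 7 listed partners none passed from cAMP to 4OHT, 2 rose and 1 fell from 4OHT to PD+LY, and 2 rose from cAMP to PD+LY. Among them the histone deacetylase gene Hdac2 rose in PD+LY relative to cAMP (0.65 ± 0.10, adjusted p = 0.000418). Of the 8 genes 0.0%, 37.5% and 25.0% passed in the 3 comparisons, beside 8.70%, 23.3% and 26.0% of all tested genes.

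The mean pattern of the 9 genes, taken as their log2 CPM centred on each gene and averaged, was 0.43 and 0.32 in cAMP, -0.33 and -0.18 in 4OHT, and -0.04 and -0.20 in PD+LY. Both cAMP libraries were above the other 4. The genes whose log2 CPM followed this pattern most closely over the 6 libraries, of 12219 candidates, were Npm1 (Pearson r = 0.998), Mapk1ip1l (0.997), Fam49a (0.993), Setd7 (0.992), Prpf4b (0.991), Cachd1 (0.990), Cds2 (0.990) and Rfx3 (0.989). Npm1, for example, was at 2868 and 2728 CPM in cAMP, 2097 and 2201 CPM in 4OHT, and 2314 and 2180 CPM in PD+LY. With 6 points in 3 groups and so many candidates, high values of r are given as a description, and the mean pattern is not that of Vamp2, Rab3a, Dnm1, Stx1a or Slc17a6, whose highest library was not a cAMP library.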

How the data were processed

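The study's RNA was read with a stranded mRNA kit on paired ends. The authors worked on the Galaxy platform, with Trimmomatic for trimming, HISAT2 for mapping to mm10 (GRCm38) and HTSeq in unstranded mode for counting, and the deposited values are raw counts per gene symbol in 1 table of 25239 genes and 6 libraries. Here the counts were tested with edgeR 4.0.16 in R 4.3.3: filterByExpr, at a minimum count of 10 and a total of 15, passed 15256 genes and dropped 9983, libraries were scaled by TMM (factors 0.991 to 1.01), and a quasi-likelihood model with robust estimation was fitted to 3 groups over all 6 libraries. Standard errors are the log2 fold change divided by the square root of F. CPM uses the library totals over the tested genes, scaled by the TMM factors. With 2 libraries a group, an exact 2-sided permutation test of 1 value cannot go below p = 0.333, so none is given. Replicate libraries differed by more than counting noise (chi-square per degree of freedom 4.47 to 17.3).

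The 9 genes, the 9 role lists and the 12 marker lists were chosen with earlier results of these data known. Relatives of a member were named in part, and 8 genes were named for a like pattern. Per list and comparison up to 2 genes a direction were eligible. These had the largest change among those that passed with a mean of at least 50 counts. Only a part of the eligible genes is given, picked without a fixed rule. Positions and exonic lengths are from GENCODE M21. Alternatives were DESeq2 1.42.0, RLE size factors, no filter, 10 counts in each library, only the groups compared, a block for the replicate number, and each library left out.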

Additional observations from a re-analysis of the deposited data

How the results depend on the processing

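Of the 9 genes, the 2 that passed in 4OHT against cAMP became 4 when only these 2 groups were fitted, and between 0 and 3 with 1 library left out. In PD+LY against 4OHT the 2 became 1 with a 2-fold limit added and 0 to 2 with 1 library left out, and in PD+LY against cAMP the 4 became 2 with a 2-fold limit and 1 to 5 with 1 library left out. Over all 147 vesicle genes, 16 passed in 4OHT against cAMP, against 25 with no filter on low counts, 28 when only these groups were fitted, 6 with a 2-fold limit and 3 to 26 with 1 library left out. The 30 in PD+LY against 4OHT became 8 with a 2-fold limit and 9 to 35 with 1 library left out, and the 47 in PD+LY against cAMP became 18 and 25 to 51. Over all tested genes the 1328 of 4OHT against cAMP became 2186 with no filter, 2394 with only these groups and 286 to 2460 with 1 library left out, the 3557 of PD+LY against 4OHT 1294 to 4295, and the 3963 of PD+LY against cAMP 2339 to 4395; the 2-fold limit left 414, 1124 and 1413. Changes of sign occurred in values that had not passed: Snap25 in PD+LY against 4OHT without 4OHT library 1 (-0.12) or PD+LY library 1 (-4.18), over a range of -4.18 to 4.93, Stx1a in 4OHT against cAMP without cAMP library 1 (-0.10) or 4OHT library 2 (-0.45), over -0.45 to 0.41, and Dnm1 in PD+LY against cAMP without PD+LY library 1 (0.12), over -0.27 to 0.12. A fit without 1 library leaves its group with 1, which is assumed to vary like the others, and the cause of these changes was not tested.

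The labels number the libraries 1 and 2 in each group. The deviations of same-numbered libraries correlated at 0.07 (cAMP and 4OHT), 0.21 (cAMP and PD+LY) and 0.06 (4OHT and PD+LY). These low values cannot show whether same-numbered libraries share a differentiation or batch, which the sources used here do not give. With the replicate number as a block 3, 2 and 5 of the 9 genes passed in the 3 comparisons, Dnm1 in 4OHT against cAMP (0.47, adjusted p = 0.0194) and Vamp2 in PD+LY against cAMP (0.33, adjusted p = 0.0263) being added, and 27, 42 and 64 of the vesicle genes. Over all tested genes 2491, 4859 and 5150 passed with the block.

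RLE size factors moved the median fold change of all genes by at most 0.0027 and changed no call of the 9 genes. DESeq2 changed 1, that of Cplx2 in PD+LY against cAMP (adjusted p = 0.0679). A fit with no robust estimation was chosen after seeing the data and changed none. Depth limits Snap25 and Slc17a6, at 16 counts or fewer in each library.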
